A study of Mus musculus with 148 samples.

Results

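Transcripts of 3 chemokine ligands, Cxcl9, Cxcl10 and Cxcl16, and of 2 chemokine receptors, Cxcr3 and Cxcr6, were followed through the immune cells of breast cancer lung metastases. They were taken by name and are 5 of the 52634 gene rows counted on every plate. CXCL9 and CXCL10 are small secreted proteins that IFNγ induces in myeloid cells and that attract activated T cells and NK cells through their shared receptor CXCR3. CXCL16 is made as a membrane protein with a chemokine domain on a stalk, is shed by the proteases ADAM10 and ADAM17, and binds CXCR6, a receptor of activated, tissue-resident and dysfunctional T cells. In tumors the CXCR3 ligands of macrophages and DCs are known for drawing in and positioning CD8 T cells, and CXCL16 for keeping CXCR6-bearing T cells close to DCs.

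The cells came from 63 samples of 27 mice, all C57BL/6 animals carrying photoactivatable GFP (PA-GFP). EO771-tdTomato cells, a mouse mammary carcinoma line with a red label, were injected into the mammary gland of 8-week-old females, and the tumor was resected 3 weeks later. Groups were Normal (lungs of 3 control mice, 9 plates), Pre-MET (lungs of 3 tumor-bearing mice before metastasis, 8 plates), Relapse-free (lungs of 6 mice with no metastasis after resection, 29 plates) and Primary (4 mammary tumors, 9 plates). In mice with metastases they were MET (lung tissue with a metastasis, 13 mice, 29 plates), Distal normal tissue (14 mice, 28 plates), MET Core (13 mice, 24 plates) and MET Invasive margin (7 mice, 12 plates). Core and margin cells were labeled by light under the microscope and sorted as CD31-GFP+, while other cells were sorted as CD31-CD45+ and only the core of mouse 17 carried both gates. The margin library of mouse 17 gives NON-MET as its photoactivated area, and the 9 plates of Normal mice were alone in their sequencing batch.

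Single cells were counted by UMI, a tag that marks each captured mRNA molecule, from the 3′ end. A sample held 55 to 1974 immune cells and 48306 to 2745794 UMIs, with a median of 629 to 3689.5 UMIs per cell, and Primary cells were the deepest. UMIs were summed per mouse, tissue and cell label over at least 10 cells and are given as CPM, the UMIs of a gene in every 1000000 UMIs of the sum, with the SD over such sums. Markers were checked by lineage, not for each of the authors' 27 labels: Cd3d averaged 1003 CPM in T cell sums and at most 77.18 CPM in those of any other lineage. Other markers were less clean. Fcgr1, listed as a monocyte marker, was higher in macrophages (519.5 CPM) than in monocytes (386.2 CPM). Ly6c2, also of that list, averaged 1831 CPM in monocytes and 899.7 CPM in T cells. S100a8, a neutrophil marker, averaged 110500 CPM in neutrophils and from 409 CPM in macrophages to 869.7 CPM in monocytes among the other lineages. The DC marker Zbtb46 was at 0 in 19 of 36 DC sums, and the macrophage marker Mertk in 18 of 40 macrophage sums. In the 592 wells left without a cell, with a median of 8 UMIs each, the 5 genes had between 0 and 2 UMIs. Wells this shallow cannot show how large a background is in CPM. Immune cells held 3125 UMIs of Cxcl9, 9987 of Cxcl10, 6219 of Cxcl16, 1110 of Cxcr3 and 2142 of Cxcr6. These UMIs lay in few cells: 375 cells for Cxcl9, 1096 for Cxcl10, 1217 for Cxcl16, 400 for Cxcr3 and 706 for Cxcr6.

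On mouse genome build GRCm38 (mm10), Cxcl9 (ENSMUSG00000029417.9) lies at chr5:92321347-92328079 and Cxcl10 (ENSMUSG00000034855.13) at chr5:92346638-92348889, both on the minus strand and 18558 bases apart. Cxcl11, the third ligand of Cxcr3, follows after another 10654 bases, is annotated as a polymorphic pseudogene in this strain and had 209 UMIs in 81 cells. Cxcl16 (ENSMUSG00000018920.11) is at chr11:70453983-70459984 on the minus strand, Cxcr3 (ENSMUSG00000050232.6) at chrX:101731535-101734269 on the minus strand and Cxcr6 (ENSMUSG00000048521.8) at chr9:123806475-123811760 on the plus strand. Exons of Cxcl10 share 133 bases with Art3, and those of Cxcl16 share 552 bases with Zmynd15, both genes of the opposite strand. By the study's methods, genes that overlap on 1 strand were counted as a single gene, but 0 of the 52634 rows had a joined symbol split by a semicolon, and the overlapping pairs Mir8119 and Lck, and Ifi211 and Mndal, have separate rows. How reads from opposite strands were told apart is not given in the sources used here.

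The promoters of the neighbouring ligands are shown because both genes were counted in the same monocytes (below), each from 250 bases before to 50 bases after the RefSeq start in GRCm38.p6. The Cxcl10 promoter (chr5:92348840-92349139, minus strand) has in capitals a match to an interferon-stimulated response element (ISRE, GAAANNGAAA), 213 bases before the start, and a κB match (GGGNNTTCC) 103 bases before it.
Cxcl10: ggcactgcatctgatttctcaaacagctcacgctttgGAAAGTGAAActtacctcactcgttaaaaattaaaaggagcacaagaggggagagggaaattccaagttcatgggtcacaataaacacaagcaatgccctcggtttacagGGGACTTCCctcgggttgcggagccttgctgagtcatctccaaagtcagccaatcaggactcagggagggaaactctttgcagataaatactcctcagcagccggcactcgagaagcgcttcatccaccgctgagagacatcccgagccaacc
In the Cxcl9 promoter (chr5:92328030-92328329, minus strand) the capitals are κB matches 130 and 42 bases before the start, and no ISRE match lies in the window.
Cxcl9: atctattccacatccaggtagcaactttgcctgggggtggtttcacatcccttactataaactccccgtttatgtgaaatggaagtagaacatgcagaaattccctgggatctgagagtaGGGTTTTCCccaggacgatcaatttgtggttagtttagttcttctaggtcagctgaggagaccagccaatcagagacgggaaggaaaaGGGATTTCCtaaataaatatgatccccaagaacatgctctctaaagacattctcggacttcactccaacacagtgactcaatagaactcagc
Searched on both strands in all 32851 promoters of that length, the ISRE was found in 3.44%, the κB motif in 5.82%, the GAS motif (TTCNNNGAA) in 8.3% and the T-box motif (TCACACC) in 3.98%. None of these 4 motifs was found in the Cxcr3 or Cxcr6 window, and no promoter of Cxcl16 was held in the table used. A match is a run of letters and no evidence of binding.

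Each ligand had its own order of cell labels, in which nearly all neighbours lay within their spread over sums. The means of a label pool its sums from all tissues, which differ in level and in the labels they hold. Cxcl9 averaged 305.3 ± 421.1 CPM (SD, n = 25) in Mon Thbs1, the thrombospondin-expressing monocytes, and 293.7 ± 311.7 CPM (n = 9) in Mac Cd81, a tumor-associated macrophage. It was lower in cDC1 (241.5 ± 336.7 CPM, n = 5), cDC2 (214.4 ± 322.3 CPM, n = 16) and Mac Isg20 (163.1 ± 197.2 CPM, n = 15), the other tumor-associated macrophage. In Mon Fn1, the fibronectin monocytes, and in Mon Ace, the monocytes named for Ace, Cxcl9 averaged 21.07 CPM (n = 54) and 8.566 CPM (n = 32). Among the upper 5 labels no neighbours differed beyond their SD, so the rank of monocytes over macrophages and DCs is not resolved.

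Cxcl10 was highest in Neut PMN-MDSC (1374 ± 1331 CPM, n = 5), neutrophils with a suppressor program, and in Mon Thbs1 (1272 ± 1064 CPM, n = 25). Mon Thbs1 sums ran from 0 through a median of 790.7 to 3800 CPM. Mac Isg20 followed at 899.3 ± 1010 CPM (n = 15), then Neut Ptgs2, the mature neutrophils, at 397.2 ± 941.6 CPM (n = 29) and cDC2 at 351.9 ± 338.8 CPM (n = 16). At the other end were Mac Cd9, the alveolar macrophages of normal lung, at 2.478 CPM (n = 11). In Treg, Cxcl10 averaged 268.2 ± 315.9 CPM and Cxcl9 5.0 CPM (n = 7).

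Cxcl16 had another order, led by migDC, the Ccr7-expressing migratory DCs, at 1398 ± 412.1 CPM (n = 3). All 3 of these sums were Primary tumors, with 1743, 1510 and 941.8 CPM in mice 10, 38 and 9. Macrophages came next, with 719.9 ± 480.8 CPM in Mac Cd81 (n = 9), 503 ± 209.6 CPM in Mac Gpnmb (n = 14) and 386.5 ± 254.5 CPM in Mac Isg20 (n = 15). Mac Gpnmb are the regulatory, Trem2-expressing macrophages of the study. cDC1 and cDC2 had 369.3 ± 169.6 CPM (n = 5) and 282.7 ± 121.2 CPM (n = 16), while Mon Fn1 had 14.69 CPM (n = 54) and alveolar Mac Cd9 had 4.439 CPM (n = 11). The step from migDC to Mac Cd81 was the only one of neighbours in any of these orders that exceeded their spread. In Primary tumors alone, Mac Cd81 had 989 ± 286.7 CPM (752.4 to 1338 CPM, n = 4), a range that overlapped that of migDC, so label and tissue cannot be told apart in this step.

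For the receptors, the order among T and NK labels differed as well, again with all tissues pooled. Treg made up 21.52% of Primary T cells and 6.323% of those in the core. Cxcr3 averaged 243.2 ± 359.4 CPM in Treg (n = 7), 151.3 ± 136.9 CPM in CD8 Gzmk, the activated CD8 T cells (n = 45), and 88.96 ± 106.6 CPM in CD4 S100a4, the activated CD4 T cells (n = 27). It was 79.6 ± 101.2 CPM in naive CD8 Dapl1 (n = 9), 44.31 CPM in naive CD4 Lef1 (n = 46) and 25.1 CPM in NK Ncr1 (n = 40). Cxcr6 was highest in CD8 Lag3, the dysfunctional CD8 T cells (540.2 ± 498.1 CPM, n = 7), and in CD4 S100a4 (441.9 ± 454 CPM, n = 27). CD8 Gzmk followed with 229.1 ± 173.1 CPM (n = 45), and Treg and NK Ncr1 had 66.7 CPM (n = 7) and 15.47 CPM (n = 40) of Cxcr6. Outside the T and NK labels Cxcr6 reached at most 5.244 CPM in any label. Cxcr3 outside those labels came to 75.7 CPM in Neut PMN-MDSC, which rests on 3 and 5 UMIs in 2 of 5 sums.

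**Figure D1:**
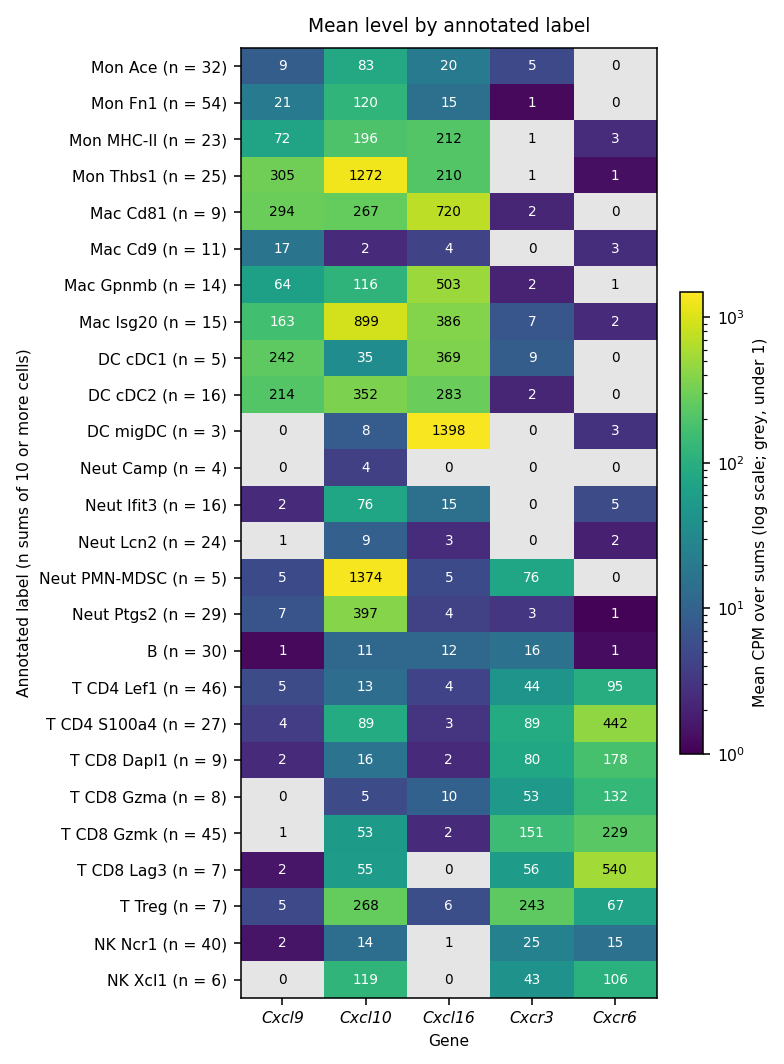
Heat map of the mean CPM of the 5 genes, in columns, in each cell label, in rows, averaged over sums of at least 10 cells per mouse and tissue. Color is on a log scale, numbers are the means and grey is below 1 CPM. Cxcl9 and Cxcl10 share their high level in Mon Thbs1 (305.3 and 1272 CPM), Cxcl16 is highest in migDC (1398 CPM), and Cxcr6 is at most 5.244 CPM outside the T and NK rows.

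Cell by cell, detection gave a similar picture once cells were thinned to 500 UMIs each, so that depth was equal. Each share is the mean over sums of the percent of cells in a sum, not a share of all cells pooled. A Cxcl10 UMI was found in 6.402% of monocytes, 7.551% of macrophages, 4.596% of DCs and 2.509% of neutrophils. In lymphocyte lineages it was 1.279% of T cells, 0.7654% of NK cells and 0.3755% of B cells. Their median depths were 996.5, 1002 and 1001 UMIs against 1452 in monocytes and 1673 in macrophages. Among T cell labels Treg stood higher, at 9.771%. Cxcl16 was detected in 14.37% of macrophages, 13.65% of DCs and 2.738% of monocytes, against 0.2459% of T cells and 0.4207% of B cells. Cxcl9 was the rarest ligand, with 3.907% of macrophages, 2.437% of DCs and 1.652% of monocytes, against 0.05497% of T cells. Of T cells, 6.829% had Cxcr6 and 2.576% had Cxcr3, against 1.083% and 1.18% of NK cells. Cxcr3 was found in 0.0359% of monocytes, the lineage that should lack it.

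By label, the thinned share was 41.67% of migDC for Cxcl16 (76.67% unthinned) and 16.99% of CD8 Lag3 for Cxcr6 (32.72% unthinned). It was 17.42% of Mon Thbs1, 13.19% of Neut PMN-MDSC and 12.52% of Mac Isg20 for Cxcl10, and 9.747% of Mac Cd81 for Cxcl9. For Cxcr3 the order of shares was not that of the mean level: 5.439% of CD8 Gzmk and 2.739% of Treg had a UMI, although Treg had the higher mean CPM. Unthinned, the order turned round, with 8.785% of CD8 Gzmk and 11.69% of Treg at median depths of 1010.5 and 1495.5 UMIs.

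Cxcl9 and Cxcl10 were detected together in monocytes. Of 6308 thinned monocytes, 78 had Cxcl9 and 334 had Cxcl10, and 36 cells had both, so that Cxcl10 was found in 46.2% of Cxcl9-positive and 4.78% of Cxcl9-negative cells. In macrophages the shares were 23.6% and 6.22% (17 of 72 Cxcl9-positive cells), and in DCs 19% and 3.9% (4 of 21). Cxcl16 was found in 20.5% of Cxcl9-positive and 1.85% of Cxcl9-negative monocytes. Of T cells, 171 had Cxcr3, 383 had Cxcr6 and 21 had both, or 12.3% of Cxcr3-positive against 5.42% of Cxcr3-negative cells. These shares pool cells of all samples and tissues, which differ in level, and are given as a description.

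Whether metastasis changed the ligands was asked in lung tissue with a metastasis against Distal normal tissue, mostly of the same animals. In monocytes, Cxcl10 rose. It averaged 414.5 ± 331.4 CPM in MET (n = 13) and 51.76 ± 63.15 CPM in Distal normal tissue (n = 14), a log2 fold change of 2.78 (SE 0.55, adjusted p = 0.00198, edgeR quasi-likelihood test with Benjamini-Hochberg adjustment over 2098 genes). MET monocytes ran from 0 through a median of 405.7 to 1038 CPM, and distal monocytes from 0 through 29.39 to 209.5 CPM. The groups overlapped, yet 9 MET sums lay above every distal sum and Cxcl10 was higher in MET in 11 of the 13 mice with both tissues. It was one of 31 genes called in this comparison (1.48%), all of them higher in MET. With the mouse as a block the log2 fold change was 3.07 (adjusted p = 2.123e-06), and with the sequencing batch as a covariate it was 3.01 (adjusted p = 5.081e-05). Within the batches that held both tissues the means were 562.3 against 11.57 CPM (5 and 7 sums), 246.3 against 61.54 CPM (2 and 4 sums) and 406.9 against 164.2 CPM (4 and 2 sums). The thinned share of monocytes with a Cxcl10 UMI was 7.112% in MET and 1.563% in Distal normal tissue, at median depths of 1313 and 1426 UMIs.

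The other ligands had too few UMIs in monocytes for the main fit. Cxcl9 averaged 118.3 ± 132.5 CPM in MET (0 to 374.9, median 80.82 CPM) and 12.99 ± 42.08 CPM in Distal normal tissue (0 to 158.8, median 0 CPM). Cxcl16 averaged 90.21 ± 87.49 CPM (median 56.61, at most 305.6 CPM) and 20.04 ± 27.37 CPM (median 7.151, at most 86.73 CPM). Each was higher in MET in 11 of 13 mice. With no filter on low counts 322 of 22399 genes were called. In that setting the log2 fold changes were 2.10 for Cxcl9 (adjusted p = 4.034e-05) and 1.75 for Cxcl16 (adjusted p = 0.0028), by edgeR's quasi-likelihood test.

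A monocyte sum mixes subpopulations, and their proportions differed between these tissues. Mon Thbs1, the label highest in Cxcl10, made up 25.47% of MET and 5.284% of distal monocytes, and Mon Fn1, with little of it, 51.36% and 68.75%. Within Mon Fn1, Cxcl10 averaged 102.2 ± 141.5 CPM in MET and 30.37 ± 43.17 CPM in Distal normal tissue (n = 13 each) and was higher in 6 and lower in 4 of 12 mice. It was below the filter of that fit, in which 0 of 1292 genes were called (0%, with 17 at an unadjusted p under 0.05); without the filter its log2 fold change was 1.18 (adjusted p = 0.241, edgeR quasi-likelihood test). Within Mon Thbs1 the 10 MET sums lay between 425.6 and 2650 CPM of Cxcl10, with a mean of 1422 ± 815 CPM. The only distal sum of that label, 12 cells of mouse 36, had 827.4 CPM, so no test could be made. A change of mix and a change within a subpopulation cannot be told apart in the monocyte sums. Among markers of other lineages, the 4 summed T cell markers had medians of 14.72 CPM in MET and 9.482 CPM in distal monocytes, and the 4 DC markers 16.02 and 16.94 CPM. The 4 macrophage markers had medians of 842.6 and 666.5 CPM, and Cd68 of that list and Fcgr1 of the monocyte list were among the called genes. The 4 neutrophil markers had summed medians of 835.4 and 986.8 CPM, and the 3 of them that passed the filter had a median log2 fold change of -0.69, none called. The part of these markers in the Cxcl10 result was not tested.

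**Figure D2:**
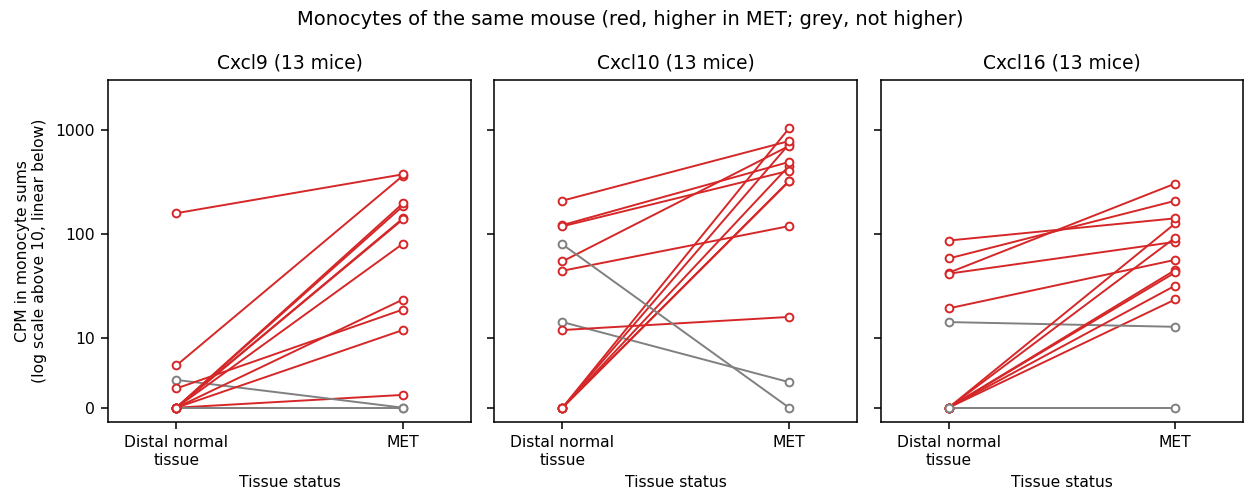
Each line joins the CPM of 1 ligand in monocytes of Distal normal tissue and of MET of the same mouse (13 mice); the axis is linear below 10 CPM and logarithmic above, red lines are higher in MET and grey lines are not. In each panel 11 of 13 lines are red, and Cxcl10 goes from a mean of 51.76 to 414.5 CPM over all sums.

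In macrophages, Cxcl10 averaged 414.3 ± 333.1 CPM in MET (25.72 to 956.6, median 259 CPM, n = 9) and 112.2 ± 224.2 CPM in Distal normal tissue (0 to 566.2, median 17.64 CPM, n = 6). The log2 fold change of 2.27 (SE 0.85) had an adjusted p of 0.0968 (edgeR quasi-likelihood test), in a comparison that called 123 of 1289 genes (9.54%). With the mouse as a block, a fit that called 158 of 1289 genes (12.3%), it was 2.43 with an adjusted p of 0.00362, and it was higher in MET in 5 of 5 mice. Cxcl9 (173.3 against 217 CPM, log2 fold change -0.01, adjusted p = 0.999) and Cxcl16 (484.1 against 350.9 CPM, log2 fold change 0.73, SE 0.51, adjusted p = 0.457) were not called. The distal mean of Cxcl9 was set by mouse 23, whose 20 macrophages had 1302 CPM while the other 5 sums had none. Macrophage sums also differed in mix, since alveolar Mac Cd9 made up 63.59% of distal and 7.645% of MET macrophages, and Mac Isg20 7.195% and 39.24%. The 3 summed monocyte markers had medians of 1161 CPM in MET and 272.4 CPM in distal macrophages, and Ly6c2 of that list was called higher. The part of mix and markers in the Cxcl10 values was not tested.

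In DCs and neutrophils no gene was called by edgeR's quasi-likelihood test. In DCs (10 and 3 sums, 0 of 621 genes called, 0%, 47 at an unadjusted p under 0.05) Cxcl10 averaged 266.8 CPM in MET, against 19.5, 0 and 0 CPM in the distal sums. These values rest on 63 UMIs in MET and 1 UMI in Distal normal tissue, and only 1 mouse had both. The mix of DCs differed as well. cDC1 made up 22.69% of MET and 41.9% of distal DCs, and cDC2 61.24% and 48.57%, and the part of this mix was not tested. The log2 fold change of Cxcl10 was 4.02 (SE 1.74, adjusted p = 0.590, edgeR quasi-likelihood test). Cxcl16, at 519 and 245.4 CPM, had one of 0.82 (SE 0.67, adjusted p = 0.805, the same test). In neutrophils (9 sums each, 0 of 715 genes called, 26 at an unadjusted p under 0.05) Cxcl10 averaged 125.8 ± 140.4 and 28.44 ± 57.5 CPM and did not pass the filter.

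**Figure D3:**
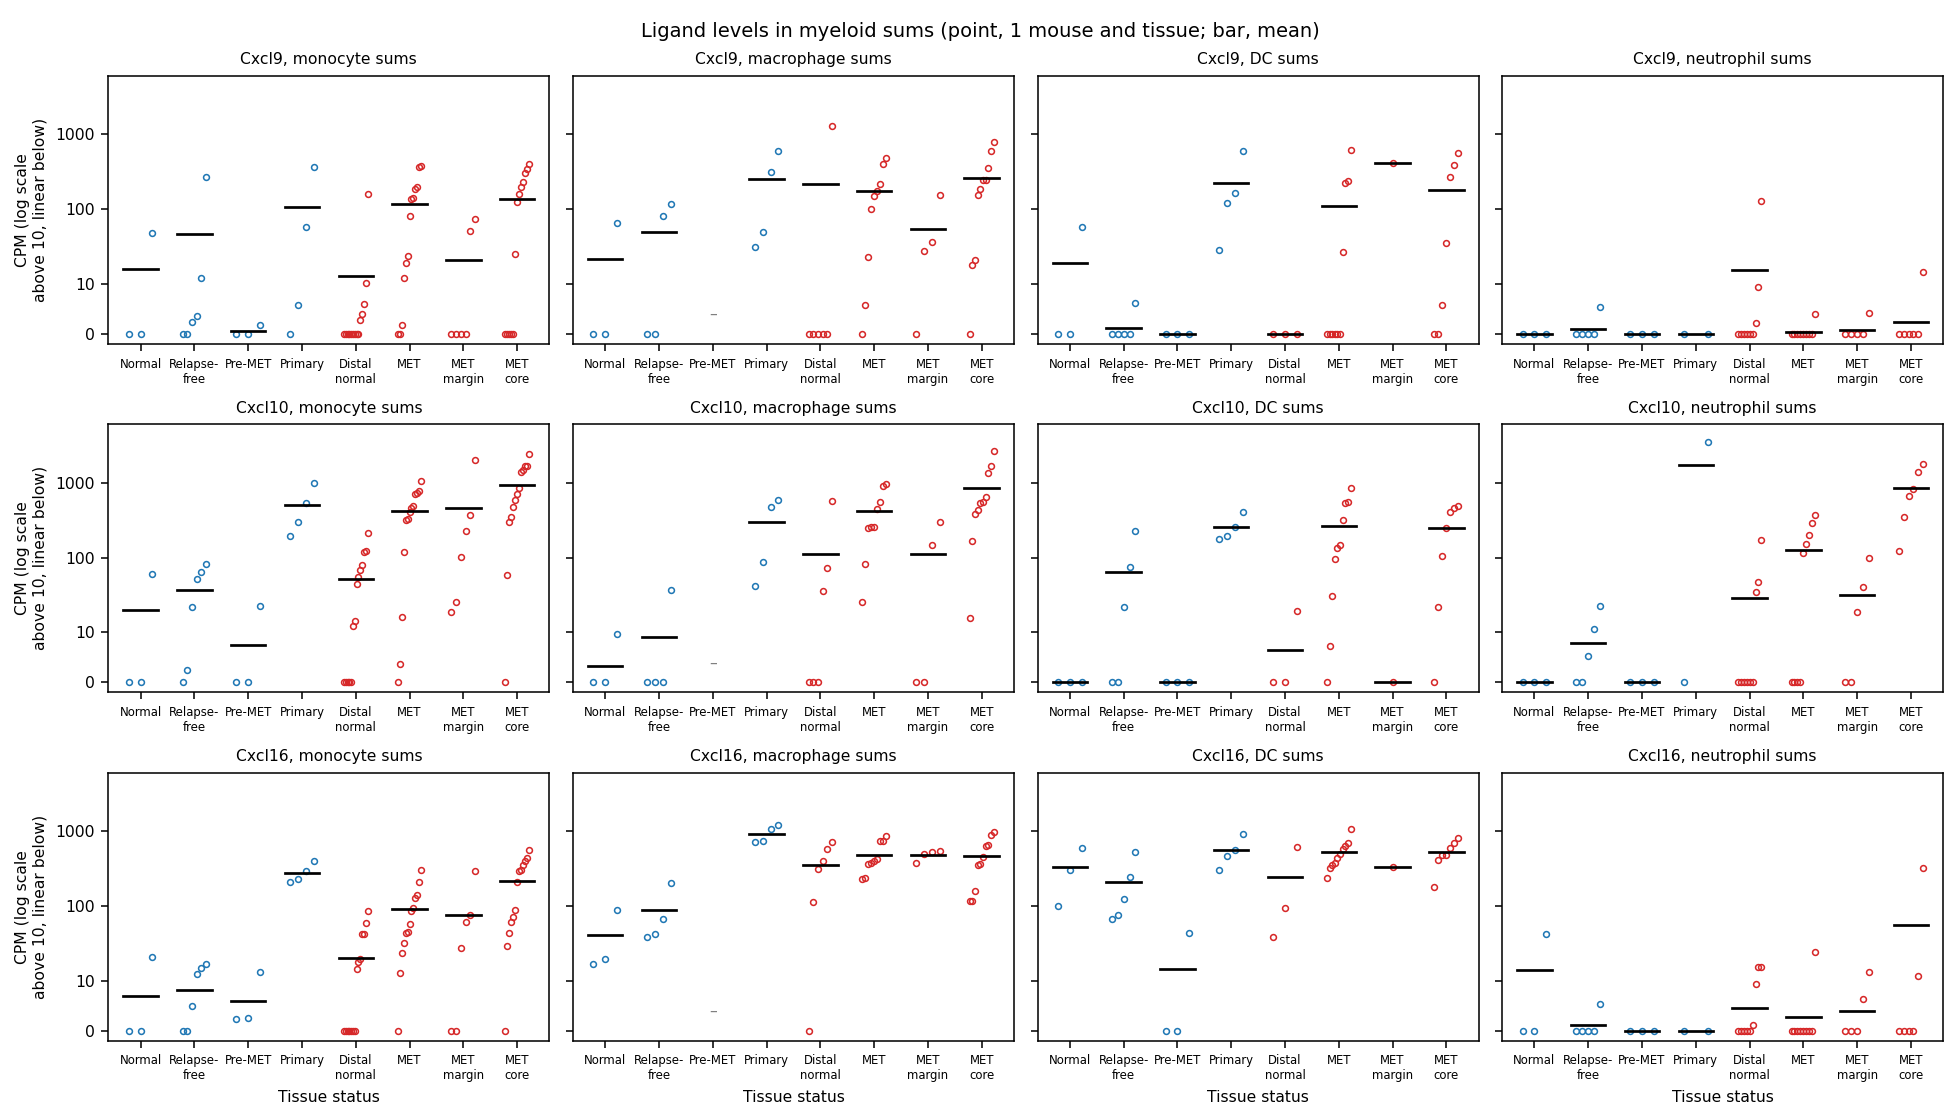
CPM of Cxcl9, Cxcl10 and Cxcl16 (rows) in monocytes, macrophages, DCs and neutrophils (columns) by tissue; each point is 1 mouse and tissue with at least 10 cells, the bar is the mean, and the axis is linear below 10 CPM and logarithmic above. Blue marks Normal, Relapse-free, Pre-MET and Primary, red the 4 tissues of mice with metastases, and a dash a group with no sum. Mean Cxcl10 in monocytes is 19.92 CPM in Normal, 7.564 CPM in Pre-MET and 920 CPM in MET Core.

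The spatial comparison set the photoactivated core against the invasive margin. In monocytes, Cxcl10 averaged 920 ± 740.3 CPM in the core (0 to 2409, median 714.9 CPM, n = 13). The 6 margin sums of mice 17, 26, 28, 31, 33 and 36 had 18.73, 226.2, 25.8, 102.2, 366.6 and 1995 CPM, a mean of 455.7 ± 765.4 CPM. One margin thus reached the upper part of the core range while the other 5 lay below its median. The log2 fold change was 0.90 (SE 0.75, adjusted p = 0.837, edgeR quasi-likelihood test), with 0 of 1025 genes called (0%, 84 at an unadjusted p under 0.05) and 4 of 5 mice higher in the core. Within the 4 batches with both, core and margin means were 2409 and 18.73, 1034 and 126, 379.1 and 234.4, and 868.9 and 1995 CPM. Without both samples of mouse 17 the log2 fold change was 0.40 (adjusted p = 0.964). Without the margin of mouse 36 the margin mean was 147.9 ± 148 CPM and the log2 fold change 3.14 (adjusted p = 0.0794, edgeR quasi-likelihood test). With the mouse as a block it was 2.75 (adjusted p = 0.104), in a fit that called 45 of 1025 genes (4.39%).

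Cxcl16 in monocytes averaged 217.3 ± 181.5 CPM in the core and 76.38 ± 110.8 CPM in the margin, where mouse 33 had 293.3 CPM from 4 UMIs in 18 cells. Without that sum the margin mean was 32.99 CPM and the log2 fold change 2.55 (adjusted p = 0.227, edgeR quasi-likelihood test). With all sums its log2 fold change of 2.00 (SE 0.80) had an adjusted p of 0.501, and with the mouse as a block, the setting that called 4.39% of genes, it was 2.57 with an adjusted p of 0.0182, both by edgeR's quasi-likelihood test. It was higher in the core in 5 of 5 mice. Cxcl9 averaged 137.6 ± 147.9 and 20.83 ± 32.99 CPM, from 369 UMIs in the core and 3 UMIs in the margin, and was also higher in the core in 5 of 5 mice. It did not pass the filter. Without the filter, a setting that called 91 of 19527 genes, its log2 fold change was 4.57 (adjusted p = 0.00022, edgeR quasi-likelihood test). Within Mon Fn1 (7 and 5 sums, 0 of 538 genes called, 0%, 26 at an unadjusted p under 0.05) Cxcl10 averaged 380 ± 504.7 CPM in the core and 56.66 ± 117.8 CPM in the margin, from 385 and 15 UMIs, and was higher in the core in 3 of 3 mice. It was below the filter of that fit. Without the filter, a setting that called 1 of 16197 genes, its log2 fold change was 3.65 (adjusted p = 0.0114, edgeR quasi-likelihood test). Mon Thbs1 made up 43.66% of core and 11.71% of margin monocytes, and only 1 margin had a sum of that label. In all monocytes the 1 neutrophil marker that passed had a log2 fold change of -1.85. The 2 macrophage markers that passed had a median of 0.27, and none of these was called. The part of mix and markers was not tested. Without mouse 17 the log2 fold change of Cxcl16 was 1.78 (adjusted p = 0.661).

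In macrophages of core and margin (10 and 4 sums, 0 of 1743 genes called, 0%, 178 at an unadjusted p under 0.05) the 3 ligands had unlike values. Cxcl10 averaged 836.9 ± 803.9 CPM in the core (15.57 to 2617, median 546.3 CPM), against 0, 0, 145.2 and 301.6 CPM in the margin sums, a log2 fold change of 2.61 (SE 0.90, adjusted p = 0.259, edgeR quasi-likelihood test). Cxcl9 averaged 262 ± 260.7 CPM, against 0, 27.4, 152.4 and 36.2 CPM (log2 fold change 1.98, SE 0.92, adjusted p = 0.456). Cxcl16 was 470.1 and 482.1 CPM on average, a log2 fold change of -0.08 (adjusted p = 0.988). Mac Gpnmb made up 79.42% of margin and 23.48% of core macrophages, and Mac Isg20 13.84% and 56.36%. The 3 monocyte markers had a median log2 fold change of 1.72 and the 3 macrophage markers that passed one of -0.75, none called. The part of mix and markers was not tested. Without mouse 17 the log2 fold changes of Cxcl9, Cxcl10 and Cxcl16 were 0.99, 1.96 and -0.22, none called.

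Neutrophils were added to this comparison after their values had been seen. Cxcl10 in the core was 1375, 351.1, 1783, 823.6, 122 and 654.1 CPM in mice 17, 26, 28, 30, 36 and 37. In the margin it was 19, 0, 97.57, 0 and 40.7 CPM in mice 17, 26, 28, 31 and 36. The groups did not overlap, and the core was higher in 4 of 4 mice with both. The share of all genes whose groups did not overlap was not counted. Cxcl10 did not pass the filter of the main fit, which called 1 of 216 genes (0.463%). Without the filter, a setting that called 3 of 16887 genes, the log2 fold change of Cxcl10 was 5.07 (adjusted p = 0.000802, edgeR quasi-likelihood test). Core neutrophils held 617 UMIs of Cxcl10 in 395 cells, margin neutrophils 11 UMIs in 488 cells. Neut PMN-MDSC made up 19.99% of core and 0.4665% of margin neutrophils. Within Neut Ptgs2 the 3 core sums had 2075, 2683 and 1607 CPM and the 2 margin sums 20.06 and 44.96 CPM. Summed monocyte markers had medians of 639.1 CPM in core and 292.7 CPM in margin neutrophils, macrophage markers 221.8 and 77.89 CPM, and erythroid markers 202.1 and 0 CPM. The part of these in the result was not tested.

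Lung metastases were next compared with mammary tumors of other mice, core against Primary, and no mouse had both. None of the ligands differed past the threshold in monocytes, macrophages or DCs, and neutrophils had too few sums for a test. In monocytes (13 and 4 sums, 27 of 1835 genes called, 1.47%) Cxcl10 averaged 920 CPM in the core, and the Primary sums of mice 10, 38, 8 and 9 had 534.6, 984.4, 301.8 and 195.7 CPM, a log2 fold change of 0.83 (SE 0.60, adjusted p = 0.649, edgeR quasi-likelihood test). Cxcl9 had 137.6 and 106.5 CPM (log2 fold change 0.50, SE 0.83, adjusted p = 0.872). Without Primary mouse 38 the Primary mean of Cxcl9 was 21.18 CPM and the log2 fold change 2.65 (adjusted p = 0.346). Cxcl16 had 217.3 and 278.7 CPM (-0.56, SE 0.51, adjusted p = 0.731). Primary monocytes lay inside the range of core monocytes for all 3 ligands. In macrophages (10 and 4 sums, 98 of 2162 genes called, 4.53%) Cxcl16 averaged 470.1 CPM in the core and 924.5 CPM in Primary, a log2 fold change of -0.92 (SE 0.44, adjusted p = 0.298). Mac Cd81, the macrophage label highest in Cxcl16, made up 19.68% of core and 80.9% of Primary macrophages. Of the markers, Adgre1 and C1qa were called lower and S100a8 higher in the core, and their part was not tested. Cxcl10 in macrophages had one of 1.36 (SE 0.70, adjusted p = 0.345) and Cxcl9 one of -0.01 (adjusted p = 0.998). In DCs (7 and 4 sums, 6 of 1081 genes called, 0.555%) the log2 fold changes were -0.78, -0.03 and -0.02 for Cxcl9, Cxcl10 and Cxcl16 (adjusted p from 0.788 to 0.993). Only 1 sequencing batch held both groups. With the batch as a covariate the calls fell from 27 to 0 genes in monocytes, from 98 to 2 in macrophages, both higher in the core, from 6 to 0 in DCs and from 13 to 1 in T cells, so the lower calls of Adgre1 and C1qa were lost.

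Within subpopulations shared by core and Primary, Cxcl9 in Mon Thbs1 averaged 254.7 CPM in 8 cores and 42.45 CPM in 4 Primary tumors. Its log2 fold change of 2.54 (SE 0.80) had an adjusted p of 0.109 by edgeR's quasi-likelihood test, with 29 of 2345 genes called (1.24%). Without the filter, a setting that called 51 of 17778 genes, it was 2.41 with an adjusted p of 0.0441 by the same test. With the batch as a covariate 0 genes were called in that label, 242 at an unadjusted p under 0.05. S100a8, the only neutrophil marker that passed, was called higher in the core within Mon Thbs1 (log2 fold change 3.41) and in all monocytes (3.68), and its part was not tested. Cxcl10 in that label had one of 1.10 (adjusted p = 0.431) and Cxcl16 one of 0.58 (adjusted p = 0.677). In Mac Cd81 (3 and 4 sums, 129 of 1563 genes called, 8.25%) the 3 ligands had log2 fold changes of -0.30, -1.03 and -0.62, and none was called. Without the core of mouse 26 that of Cxcl16 was -2.70 (adjusted p = 0.0179, edgeR quasi-likelihood test). That refit held fewer core sums than the 3 set as the minimum for a test, and it is given as a description only. No sequencing batch held Mac Cd81 sums of both groups, so tissue and batch cannot be told apart in this label.

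Before metastasis Cxcl10 was low in monocytes. In Pre-MET monocytes the 3 sums had 22.7, 0 and 0 CPM of Cxcl10, and in Normal monocytes 59.8, 0 and 0 CPM, so that all but 1 sum in each group had none. In Relapse-free monocytes Cxcl10 averaged 37.07 ± 33.81 CPM (0 to 81.21, n = 6). Cxcl16 in DCs was 595, 299.1 and 99.5 CPM in Normal and 43.7, 0 and 0 CPM in Pre-MET, without overlap, from 45 UMIs in 63 cells and 1 UMI in 37 cells. The share of all genes whose groups did not overlap was not counted. The mix of DCs differed as well, with 11.19% migDC and 49.53% cDC1 in Normal against 2.564% and 26.92% in Pre-MET, and its part was not tested. Cxcl16 did not pass the filter of a fit that called 0 of 505 genes (0%, 32 at an unadjusted p under 0.05), and without the filter its adjusted p was 0.643 (edgeR quasi-likelihood test). No ligand passed the filter in monocytes, where 214 of 4953 genes were called (4.32%). In Mon Fn1 (11 of 3273 genes called, 0.336%) Cxcl10 was 0 CPM in all 3 Normal lungs and 5.002 CPM on average in Pre-MET, and neutrophils of both groups (4 of 377 genes called, 1.06%) had no Cxcl10 UMI. Tissue and sequencing batch cannot be told apart in any comparison with Normal.

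Which cells held the ligand transcripts was summarized per sample. In MET, 45.97% of Cxcl10 UMIs were in Mon Thbs1, which were 11.21% of the cells, and 16.95% in Mac Isg20, which were 7.212%. In the core these labels held 38.78% and 18.44%, while Mac Cd81 held 9.924% and Neut Ptgs2 9.682%. The share in Neut Ptgs2 ran from 0% to 80.41% over 12 cores, so its mean rests largely on 1 sample. In Primary tumors Mon MHC-II, the monocytes high in MHC class II genes, held 26.74% of Cxcl10, Mon Thbs1 25.2%, Mac Cd81 18.08% and cDC2 15.39%. Cxcl9 in MET was also mostly in Mon Thbs1 (39.3%), Mac Cd81 (20.91%) and Mac Isg20 (16.71%). Cxcl16 was spread over more labels in MET, with 20.29% in Mac Cd81, 18.42% in Mac Gpnmb, 16.41% in Mon Thbs1 and 16.17% in Mac Isg20. In Primary, Mac Cd81 held 46.6% of Cxcl16, Mon MHC-II 24.02% and migDC 12.33%. These shares depend on how many cells of each label were sorted as well as on the level per cell.

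**Figure D4:**
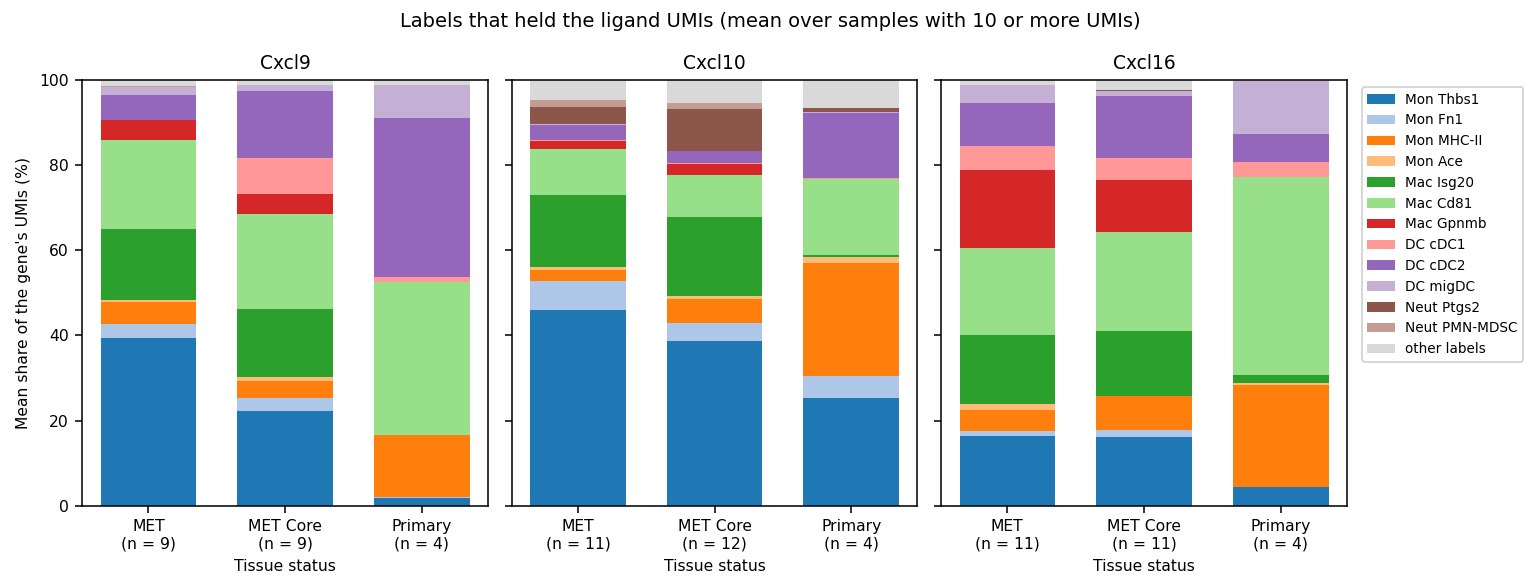
Stacked bars of the mean percent of the UMIs of each ligand that lay in each cell label, in MET, MET Core and Primary samples with at least 10 UMIs of the gene (9, 9 and 4 samples for Cxcl9; 11, 12 and 4 for Cxcl10; 11, 11 and 4 for Cxcl16). Mon Thbs1 holds 45.97% of Cxcl10 in MET and 25.2% in Primary, and Mac Cd81 holds 46.6% of Cxcl16 in Primary.

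In T cell sums Cxcr6 passed the filter in 3 comparisons and Cxcr3 in 1, Pre-MET against Normal, and neither was called. In NK cell sums neither passed the filter in any of the 3 comparisons fitted. In T cells of MET and Distal normal tissue (13 sums each, 0 of 394 genes called, 0%, 16 at an unadjusted p under 0.05) Cxcr3 averaged 83.93 ± 82.44 and 76.77 ± 45.15 CPM. It ran from 0 through 63.79 to 204.2 CPM in MET and from 0 through 72.67 to 146.1 CPM in Distal normal tissue. Cxcr6 averaged 213.9 ± 148.6 CPM (0 to 494.3, median 194.7 CPM) and 206.4 ± 121.6 CPM (0 to 370.4, median 166.6 CPM). The groups overlapped throughout, and MET was higher in 5 of 12 mice for Cxcr3 and in 6 of 12 for Cxcr6. Both were below the filter; without it the log2 fold changes were 0.42 (SE 0.50, adjusted p = 0.738) and 0.09 (SE 0.41, adjusted p = 0.962) by edgeR's quasi-likelihood test. These values rest on 104 and 113 UMIs of Cxcr3 and 191 and 279 UMIs of Cxcr6 in all.

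In core and margin T cells (13 and 6 sums, 0 of 1195 genes called, 0%, 24 at an unadjusted p under 0.05) Cxcr6 averaged 340.3 ± 287.6 CPM (92.46 to 936.7, median 228.6 CPM) and 284.1 ± 189 CPM (57.98 to 585.6, median 223.8 CPM). Its log2 fold change was 0.35 (SE 0.48, adjusted p = 0.998, edgeR quasi-likelihood test). Cxcr3 averaged 64.9 and 88.08 CPM and did not pass the filter. Against Primary T cells (4 sums, 13 of 2197 genes called, 0.592%) core T cells had a log2 fold change of -0.07 for Cxcr6 (SE 0.43, adjusted p = 0.965), with a Primary mean of 301 CPM. Cxcr3 in Primary T cells ran from 103.4 to 172.6 CPM, with a mean of 123.6 CPM against 64.9 CPM in the core, while in the only batch with both groups the core was higher. Cxcr3 was below the filter, and without the filter its log2 fold change was -0.85 (adjusted p = 0.432). S100a8, a neutrophil marker, was called higher in core T cells, and its part was not tested.

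The same pair of tissues was compared within activated CD8 T cells, where both receptors are expressed. In CD8 Gzmk cells (11 and 3 sums, 0 of 577 genes called, 0%, 100 at an unadjusted p under 0.05) Cxcr3 was 231.8, 226.3 and 510.5 CPM in Primary, and all 11 cores lay lower, at most at 196 CPM and at 87.82 CPM on average. It did not pass the filter, and without the filter its log2 fold change was -1.84 (adjusted p = 0.348, edgeR quasi-likelihood test). Cxcr6 in these cells averaged 175.9 CPM in the core and 455.7 CPM in Primary, a log2 fold change of -1.29 (SE 0.64, adjusted p = 0.287). No sequencing batch held CD8 Gzmk sums of both groups, so tissue and batch cannot be told apart in these values. The share of all genes whose groups did not overlap was not counted. Thinned to equal depth, 3.874% of core and 16.99% of Primary CD8 Gzmk cells had a Cxcr3 UMI, and 7.765% and 15.03% had a Cxcr6 UMI. These are means over sums that held 433 and 58 cells in all. In MET and Distal normal tissue the CD8 Gzmk means of Cxcr6 were 305.3 and 285.5 CPM (8 and 7 sums, 0 of 276 genes called, 0%). Cxcr3 in these cells averaged 168.1 ± 191.8 CPM in MET and 187.2 ± 127.4 CPM in Distal normal tissue, and was lower in MET in 4 and equal in 1 of 5 mice. It was below the filter, and without the filter its log2 fold change was 0.12 (SE 0.73, adjusted p = 0.970, edgeR quasi-likelihood test).

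Dysfunctional CD8 Lag3 cells reached 10 cells in 7 samples only. Cxcr6 averaged 667.4 ± 526.2 CPM in 4 cores (245.5 to 1437 CPM) and was 943.7 CPM in 1 Primary tumor, 168 CPM in 1 margin and 0 CPM in 1 Relapse-free lung. These cells made up 6.371% of cells and held 31.32% of Cxcr6 UMIs in cores, and 1.696% of cells with 37.87% of UMIs in Primary tumors. In MET the Cxcr6 UMIs lay instead mainly in CD4 S100a4 (29.76%) and CD8 Gzmk (29.7%). Activated CD4 S100a4 cells had 660.4 ± 783.3 CPM of Cxcr6 in 5 cores, from 74.95 to 2032 CPM, the highest sum of this label. They had 768.2 ± 445.1 CPM in 3 distal tissues, 525.1 ± 411.3 CPM in 4 MET tissues and 259.6 ± 94.52 CPM in 3 Normal lungs. The ranges of these 3 tissues, 312.8 to 1202, 149 to 1010 and 197.2 to 368.3 CPM, overlapped. In 2 margins the mean was 845 CPM, in 3 Primary tumors 252.8 CPM, in 5 Relapse-free lungs 176.7 CPM and in 2 Pre-MET lungs 56.06 CPM.

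NK cells had little of either receptor, with the highest means in Primary tumors. NK Xcl1, the label with the higher mean of both receptors, made up 59.62% of Primary NK cells and 1.716% to 18.91% of those in other tissues, and its part was not tested. The 2 Primary NK sums had 202.5 and 135.9 CPM of Cxcr3 and 315 and 0 CPM of Cxcr6. NK cells of MET and Distal normal tissue averaged 27.05 and 63.66 CPM of Cxcr3 and 45.12 and 18.93 CPM of Cxcr6 (8 and 7 sums, 0 of 514 genes called, 0%, 13 at an unadjusted p under 0.05). Core and margin NK cells averaged 6.439 and 32.72 CPM of Cxcr3 and 31.84 and 19.51 CPM of Cxcr6 (11 and 5 sums, 0 of 425 genes called, 0%, 0 at an unadjusted p under 0.05). At 4 to 31 UMIs of a receptor per group, these means rest on few molecules.

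**Figure D5:**
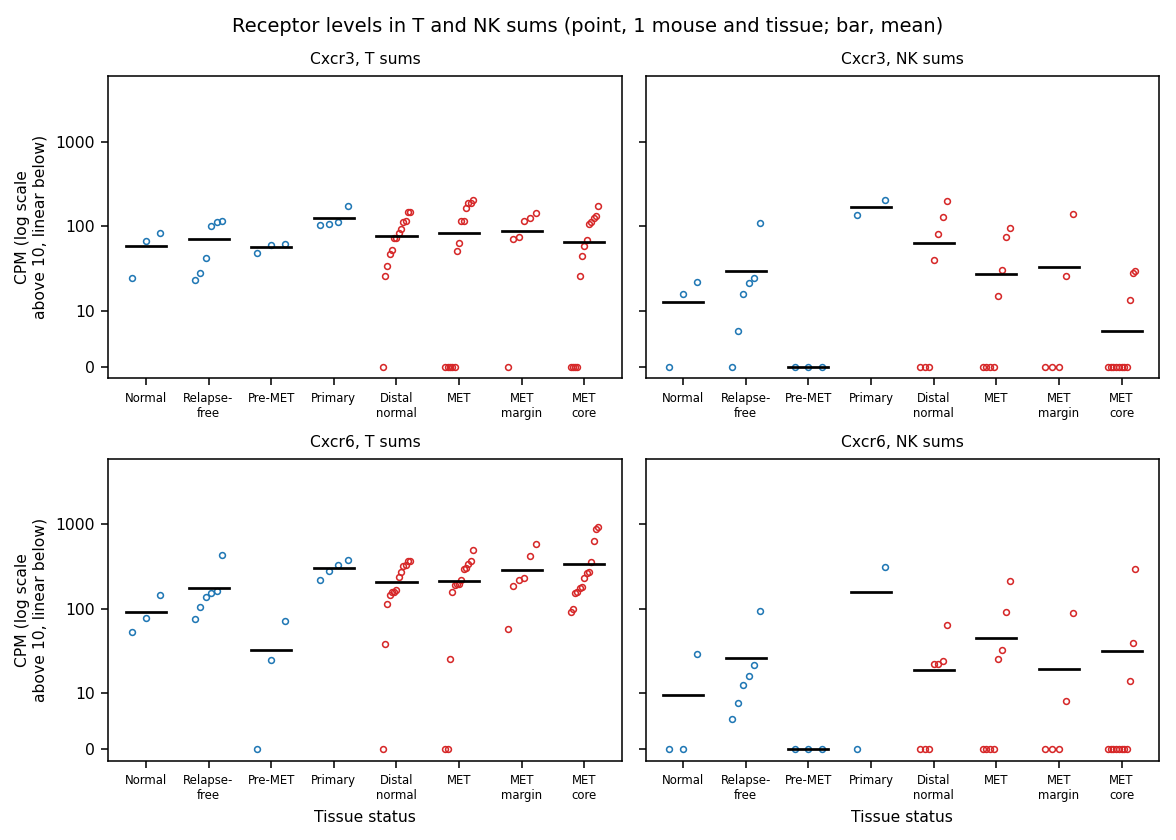
CPM of Cxcr3 and Cxcr6 (rows) in T and NK cells (columns) by tissue; each point is 1 mouse and tissue with at least 10 cells, the bar is the mean, and the axis is linear below 10 CPM and logarithmic above. Blue marks Normal, Relapse-free, Pre-MET and Primary, red the 4 tissues of mice with metastases. Mean Cxcr6 in T cells is 32.24 CPM in Pre-MET, 91.88 CPM in Normal and 340.3 CPM in MET Core, with overlapping points among most tissues.

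T cells of Pre-MET lungs had 24.7, 0 and 72 CPM of Cxcr6, and those of Normal lungs 145.1, 77.7 and 52.8 CPM, overlapping by 1 mouse. The log2 fold change was -1.35 (SE 0.81, adjusted p = 0.453, edgeR quasi-likelihood test), in a comparison with 56 of 3218 genes called (1.74%). For Cxcr3 the values were 61.8, 59.6 and 48 CPM against 83.8, 66.2 and 24.4 CPM, a log2 fold change of -0.06 (SE 0.67, adjusted p = 0.983). CD8 Gzmk made up 12.35% of Pre-MET and 18.96% of Normal T cells, and CD4 Lef1 63.86% and 54.12%. Of the markers, S100a8 was called higher and Cd8a lower in Pre-MET T cells. The part of mix and markers was not tested. In Relapse-free T cells Cxcr6 averaged 176.9 ± 128.2 CPM and Cxcr3 70.26 ± 43.84 CPM (n = 6).

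A list of 31 genes around these receptors, with interferon signaling, NF-κB, the sheddases of CXCL16 and the T-bet program, and a list of 8 lymphocyte homing genes were counted in the same fits. In monocytes of MET against Distal normal tissue 12 of the 31 passed the filter and 0 were called, where 1.48% of all genes were, with a median log2 fold change of 0.19 against 0.0011 over all genes tested. In macrophages 11 passed and 0 were called, where 9.54% of all genes were, with a median of 0.73 against 0.15. Irf1, an interferon-induced transcription factor that acts upstream of Cxcl9 and Cxcl10, had a log2 fold change of 0.68 in the monocytes (adjusted p = 0.540, edgeR quasi-likelihood test) and was named after its value had been seen.

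Some list genes were called elsewhere. In core against Primary macrophages Nfkbia, the inhibitor of NF-κB, was higher (log2 fold change 1.80, SE 0.52, adjusted p = 0.047) and Arrb2, an arrestin of chemokine receptors, lower (-1.70, SE 0.43, adjusted p = 0.0219), 2 of 18 that passed, where 4.53% of all genes were called. Neither call held with the batch as a covariate (adjusted p = 0.195 and 0.603, edgeR quasi-likelihood test). Leaving out any 1 Primary tumor ended the call of Nfkbia, with an adjusted p from 0.106 to 0.153, and leaving out mouse 10, 38 or 9 ended that of Arrb2. Within Mac Cd81 Nfkbia was lower (-3.11, SE 0.90, adjusted p = 0.0416), and Irf7, an interferon-induced transcription factor, was lower (-3.64, SE 0.86, adjusted p = 0.0175, edgeR quasi-likelihood test), where 8.25% of all genes were called. These 2 genes, of 11 that passed within Mac Cd81 (3 and 4 sums), were named after their values were seen. In sums of at least 5 cells they were -0.19 (adjusted p = 0.90) and -0.66 (adjusted p = 0.632), for Nfkbia and Irf7. In the main fit of Mac Cd81 S100a8 was called higher, and Adgre1, C1qa and Fcgr1 lower. The 3 macrophage markers that passed had a median of -2.63, and the part of these markers was not tested. No sequencing batch held Mac Cd81 sums of both groups. Of the 8 homing genes 4 passed the filter in Pre-MET against Normal monocytes, where 4.32% of all genes were called. Klf2, a transcription factor that controls lymphocyte trafficking, was lower (-1.59, SE 0.20, adjusted p = 0.00021, edgeR quasi-likelihood test). Within Mon Fn1 it was -1.58 (adjusted p = 0.0679, the same test) and not called. Mon Ace made up 59.02% of Normal and 22.62% of Pre-MET monocytes, and Mon Fn1 23.85% and 69.61%. Of the markers, S100a8 was called higher in Pre-MET and Fcgr1 and Pecam1 lower. The part of mix and markers was not tested. In the lineage sums of core against margin no gene of either list was called, among 2 to 13 of the 31 and 2 to 5 of the 8 that passed. Of all genes 0% to 0.463% were called there, so this count sets the lists apart from other genes in no way.

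The genes whose pattern was most like that of each ligand or receptor were found over the mean levels of 26 labels, among 13353 genes (Pearson r of log2(mean CPM + 1), labels of the same libraries). For Cxcl10 these were Ifit2 (r = 0.89), Ifi211 (0.826) and Ifit3 (0.818), all interferon-induced genes. For Cxcl9 they were Rab7b (0.919), Spint1 (0.891) and P2ry6 (0.884), and for Cxcl16 Tnfrsf11a (0.89), which encodes RANK, Slamf9 (0.879) and Atox1 (0.879). Cxcr3 was most like the lymphocyte receptor Cd96 (0.906), Mir8119 (0.9) and Inpp4b (0.896), and Cxcr6 like Themis (0.961) and Cd3e (0.96), both T cell genes. Mir8119 overlaps Lck on the same strand, so its reads may be those of Lck, and Ifi211 overlaps Mndal, Inpp4b Gm17072 and Cd3e Gm48720 in the same way, the last of which has no row in the counts. Between the ligands r was 0.581 for Cxcl9 and Cxcl10, 0.725 for Cxcl9 and Cxcl16 and 0.348 for Cxcl10 and Cxcl16, and between the receptors it was 0.743.

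The likeness of Cxcl10 to interferon-induced genes is the reason for showing their ISRE matches beside its own, in capitals with 10 bases on each side (RefSeq, GRCm38.p6).
Cxcl10 (chr5:92349083-92349112, minus strand): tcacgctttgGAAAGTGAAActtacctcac
Ifit3 (chr19:34583363-34583392, plus strand): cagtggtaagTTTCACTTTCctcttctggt
Ifit3 (chr19:34583397-34583426, plus strand): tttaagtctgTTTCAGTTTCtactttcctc
Ifi211 (chr1:173913064-173913093, minus strand): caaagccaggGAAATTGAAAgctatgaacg
The matches lie 213 bases before the start of Cxcl10, 156 and 122 bases before that of Ifit3 and 37 bases before that of Ifi211. Those of Ifit3 are on the opposite strand and read TTTCNNTTTC. Neither of the 2 Ifit2 windows held an ISRE match.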

How the data were processed

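Immune cells of 63 samples from 27 mice were measured by SPID-seq, a plate-based method. The authors deposited raw UMI counts per gene and well and an annotation of cells with labels from their clustering. Per the labels, reads were processed with bcl2fastq 2.15.0.4 and genome mm10. The annotated cells held at least 500 UMIs, no counts were normalized, and 595 cells labeled as tumor, erythrocyte or outlier were left out, which leaves 23425. No well identifier was shared between plates. Doublets were excluded at the sort.

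Counts were summed per mouse, tissue and lineage or label with at least 10 cells, and each contrast was fitted on its own groups of at least 3 sums with edgeR 4.0.16 (TMM, filterByExpr, quasi-likelihood F test, Benjamini-Hochberg over all genes tested, calls below 0.05; R 4.3.3, Python 3.11.15). Sums, not cells, are replicates. Shares of cells, by detection or by label, are means over sums or samples unless said to be pooled. SE is the log2 fold change over the root of F. The fit was tested on counts simulated for monocyte and T cell lineage sums alone, with a common dispersion for all genes. Sums of other lineages and of labels were not covered by that simulation. MET and distal tissue, and core and margin, of 1 mouse are the same animal by the mouse given in the labels, so the mouse was a block in an alternative. DESeq2 1.42.0, RLE factors, no filter, other cell minimums and the batch were the other alternatives. Each sum was given the sequencing batch that held the most of its cells, although 46 of the 316 lineage sums held cells of several batches. Batch covariates, means within batches and statements on batches shared by groups of sums rest on this assignment. Labels were compared without a test, since they come from clustering the same cells. Each margin left out in turn in monocytes, and the alternatives for named list genes, were also chosen after seeing the data.

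Named were the 5 genes everywhere, of the 2 lists at most the 4 largest called changes in each lineage fit, and the 3 genes most like each. Results for some genes so chosen are not reported here. Genes and lists were chosen with earlier results of these data known. Neutrophil fits, and core and margin without mouse 17, were chosen after seeing the data. Positions are from GENCODE vM21 and promoters from RefSeq. Core against margin in DCs (7 and 1 sums) and core against Primary in NK cells (11 and 2) and neutrophils (6 and 2) had too few sums for a test.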

Additional observations from a re-analysis of the deposited data

Results flagged for a closer look

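Within a tissue and lineage, 1 mouse stood far from the others in 18 of 68 groups of 4 to 10 sums; in 8 further cases the value rested on at most 3 UMIs and is not given. Dixon's 95% limit, made for normally distributed values, is passed by chance in about 1 in 20 groups, and that rate was not tested for skewed sums with many zeros. For Cxcl9 these were monocytes of Primary mouse 38 (362.4 CPM, the next at 57.79) and Relapse-free mouse 18 (265.5, next 12.18), macrophages of distal mouse 23 (1302, next 0), DCs of MET mouse 26 (616.8, next 238.7), and neutrophils of distal mouse 36 (128 CPM, next 9.419) and core mouse 17 (14.33, next 0). For Cxcl10 they were margin monocytes of mouse 36 (1995 CPM, next 366.6), macrophages of distal mouse 23 (566.2, next 71.64) and Relapse-free mouse 7 (36.5, next 0), and distal neutrophils of mouse 36 (174.1, next 47.09). Mouse 36 thus had the highest distal Cxcl9 and Cxcl10 in neutrophils and the highest margin Cxcl10 in monocytes. For Cxcl16 they were margin monocytes of mouse 33 (293.3 CPM from 4 UMIs), MET neutrophils of mouse 37 (24.36 CPM from 4 UMIs) and core neutrophils of mouse 30 (316.8 CPM from 5 UMIs).

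Among receptors, Cxcr3 stood apart in T cells of Primary mouse 9 (172.6 CPM, next 113) and in NK cells of margin mouse 36 (137.7, next 25.86) and Relapse-free mouse 11 (107.8, next 24.2). Cxcr6 did so in T cells of Relapse-free mouse 29 (430.6 CPM, next 160) and in NK cells of MET mouse 28 (211.4, next 92.4).

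Cells that the authors annotated and that were left out also held these transcripts, above the limit that a count of 0 allows. The 94 cells labeled as tumor had 11.58 CPM of Cxcl9, 7.719 of Cxcl10, 30.87 of Cxcl16 and 32.8 of Cxcr3, the last from 17 UMIs in 2 cells. The 165 cells labeled as outlier had 44.19 CPM of Cxcl9, 117.8 of Cxcl10 and 73.65 of Cxcl16. The 336 erythrocytes had 12.46 CPM of Cxcl9, 82.27 of Cxcl10, 17.45 of Cxcl16, 27.42 of Cxcr3 and 117.2 of Cxcr6, the last from 47 UMIs in 13 cells.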

How the results depend on the processing

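Of 308 alternative values of 32 fitted changes of the 5 genes, 271 kept their direction and their side of the threshold, 6 passed it and 31, none of them called, changed direction. The rise of Cxcl10 in MET monocytes stayed called under every alternative in which it passed the filter; with cells of at least 1000 UMIs it did not pass. In that comparison 31 genes were called, against 47 with DESeq2, 15 with cells of at least 1000 UMIs, 322 without the filter, 83 with the replicate block (mouse) and 82 with the batch. Over all 30 fits 747 calls became 1407 with DESeq2, 2569 without the filter and 639 with sums of at least 5 cells. Fewer fits could be made with the block (13 fits, 290 calls), the batch (20, 260), sums of at least 20 cells (19, 649) and cells of at least 1000 UMIs (17, 263).

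Pairing by mouse in the block gave called changes of 2.43 for Cxcl10 in macrophages of MET against Distal normal tissue and of 2.57 for Cxcl16 in monocytes of core against margin; it changed no other call of the 5 genes, and turned Cxcl9 in macrophages of MET to 0.62. Without the filter, Cxcl10 was called in macrophages of MET (2.77), where 461 of 17180 genes were called. It was also called in those of core against margin (2.63), with 17 of 16999 genes called. Cxcl9 was called in core Mon Thbs1 against Primary (2.41, with 51 of 17778 genes called), and in macrophages of MET it was 0.60. The batch covariate turned Cxcl9 in macrophages of MET to 0.092, and Cxcl16 in macrophages of core against margin to 0.33; with cells of at least 1000 UMIs the latter was 0.39 and with sums of at least 5 cells 0.48.

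Core against Primary had the most reversals, all of changes that were not called. With the batch these were Cxcl16 in DCs (1.06) and monocytes (0.17), Cxcl9 in macrophages (2.82) and Cxcr6 in T cells (0.60). With DESeq2 and RLE factors they were Cxcl16 in DCs (0.051 and 0.047) and Cxcl9 in macrophages (0.017 and 0.010), and with cells of at least 1000 UMIs Cxcl16 in DCs (0.034). Sums of at least 5 cells gave 0.0017 for Cxcl16 and 0.0016 for Cxcl9 in DCs, and in Mac Cd81 0.15 for Cxcl10 and 1.06 for Cxcl9. Sums of at least 20 cells gave 0.48 for Cxcl10 in DCs, 0.083 for Cxcl9 in macrophages and -0.37 for Cxcl16 in Mon Thbs1. The cause was not tested.

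Leaving out 1 mouse at a time in core against Primary gave -0.19 to 0.21 for Cxcl10, -0.24 to 0.34 for Cxcl16 and -1.15 to 0.39 for Cxcl9 in DCs. It gave -0.36 to 0.86 for Cxcl9 in macrophages, with 0.86 without Primary mouse 10 and 0.11 without mouse 38, -0.15 to 0.16 for Cxcr6 in T cells, -0.095 to 1.35 for Cxcl10 in Mon Fn1 and -2.70 to -0.40 for Cxcl16 in Mac Cd81. Primary mouse 8 turned Cxcl10 in DCs and Mon Fn1, mouse 38 Cxcl16 in DCs, and mouse 9 Cxcl9 in DCs and Cxcr6 in T cells. In core against margin monocytes, leaving out each margin gave 0.57 to 3.14 for Cxcl10 and 1.67 to 2.55 for Cxcl16, none called. In core against margin Cxcl16 in macrophages ran from -0.21 to 0.010 (without margin mouse 33), and in Pre-MET against Normal Cxcr3 in T cells from -0.13 to 0.058 (without Pre-MET mouse 9). Unthinned, the shares with a UMI were 76.67% of migDC for Cxcl16, 32.72% of CD8 Lag3 for Cxcr6 and 11.69% of Treg for Cxcr3.

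Depth is a limit. A sum of 10 cells near the median depth holds so few UMIs that 1 UMI is many CPM, receptors rest on few cells, and the mix of subpopulations moves with tissue.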
